A study of Mus musculus with 11 samples.

Results

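The 40 genes described here act in G2 phase and mitosis of the mouse cell cycle: mitotic cyclins and their kinase, Cdc25 phosphatases, mitotic kinases, and genes of the spindle checkpoint, the kinetochore, the spindle, cytokinesis and anaphase. They were chosen by gene symbol and not by a measured value, but the list was written with earlier results of these data known. All 40 were found among the 47517 rows of a table of RNA-seq read counts. The libraries were made from total RNA of forelimb buds of embryos at E10.5 on a C57BL/6 background, after depletion of ribosomal RNA. The 6 mutant libraries had the genotype Gmnn f/f; Prx-Cre and the 5 control libraries the genotype Gmnn +/f; Prx-Cre. Both groups thus carried the Prx-Cre transgene and at least 1 floxed Gmnn allele, and the controls were not free of Cre. Gmnn encodes Geminin, which binds the licensing factor Cdt1 and keeps replication origins from being licensed again in the same cell cycle. Prx-Cre expresses Cre recombinase in limb bud mesenchyme, so that blood, endothelium and surface ectoderm in a whole bud lie outside its main reach. The titles place the embryos in 4 litters, called A to D here: A held controls 1 and 2 and mutants 1 and 2, B held control 3 and mutant 6, C held control 4 and mutant 5, and D held control 5 and mutants 3 and 4. The labels name the embryos but not whether each library is a single bud, a pair or a pool, and p-values measure the spread between these libraries.

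Genes of G2 and mitosis are switched on late in the cell cycle. This is in large part through the MuvB complex with B-Myb and FoxM1, which acts at promoter elements called CHR, and through NF-Y at CCAAT boxes. Cyclin B with Cdk1 drives entry into mitosis, the kinetochore and the spindle checkpoint hold the chromosomes until all are attached, and the anaphase-promoting complex then marks securin and cyclin B for destruction so that the cell can divide by cytokinesis. Because each dividing cell passes through these stages, the transcripts are widely used as a reading of how many cells of a tissue are in G2 or mitosis. In bulk RNA from whole buds, fewer cells in these stages and less RNA per cell cannot be told apart.

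Total counts ran from 14777833 to 19733288 in the controls and from 14721181 to 17034741 in the mutants. Of all rows, 15821 genes passed the filter on low counts and were tested, among them all 40 mitotic genes, which held 108894 to 147540 counts per library. The lowest count of any of the 40 in a library was 241, for Nek2. Gmnn itself averaged 179.6 ± 40.2 CPM (counts relative to the scaled library size, SD, n = 5) in controls and 115.3 ± 16.1 (n = 6) in mutants, a log2 fold change of -0.67 (SE 0.10, edgeR quasi-likelihood test, adjusted p = 0.0291), and no mutant library reached the lowest control. Markers of limb bud mesenchyme summed to 535.3–720.5 CPM in controls and 563.4–672.7 in mutants. Tbx5, which marks the forelimb, was at 75.3–122.9 CPM in controls and 64.8–83.7 in mutants. The hindlimb genes Tbx4 and Pitx1 together stayed at or below 6.69. Of these, Pitx1 was at 4.07 CPM in control 2 and at or below 0.595 in every other library. All 4 neural tube markers together stayed at or below 0.447 CPM, with Olig2 at 0 in every library. No single marker of any cell type passed the threshold between the groups, but some lists leaned with genotype. Over all genes tested, 49.3% were lower, and 12.6% were higher in each litter. At an unadjusted p under 0.05, 9.84% were higher and 11.5% lower. Of the 9 markers of limb bud mesenchyme, 6 were higher (median log2 fold change 0.11), with 4 higher and 1 lower at an unadjusted p under 0.05. Of the 5 markers of migrating muscle precursors, 1 was higher and 2 were lower at that level. All 10 red blood cell markers were higher in mutants (median log2 fold change 0.61, 6 of them higher in each litter, 2 at an unadjusted p under 0.05). Macrophage markers were higher for 9 of 10 (median 0.76, 4 at an unadjusted p under 0.05). All 4 tested markers of neural crest and Schwann precursors were lower (median -0.49, 2 at an unadjusted p under 0.05), with summed levels of 24.6–47.5 CPM in controls and 17.96–25.36 in mutants. Control 5 and mutant 2 stood apart from the other libraries of their groups in several of the 40 genes, and the calls are given without them as well.

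Levels of the 40 genes were compared per length, as RPKM (CPM per kilobase of exon, mean over 11 libraries). The length includes bases shared with other genes, where reads were by default left out, so genes with shared bases can read too low. Shared bases made up 33.2% of Kif20a, 22.8% of Ube2c, 12.5% of Ccna2 and 11.1% of Prc1, against 0% of Cdk1. The order of Cdk1 and Ube2c below is thus not settled. Cdk1, the kinase that triggers mitosis, had the highest level at 169.2 RPKM, followed by Ube2c at 163.7, Ccnb2 at 157.5, Birc5 at 124.3 and Bub3 at 115.1. Ube2c is the ubiquitin-conjugating enzyme of the anaphase-promoting complex, Ccnb2 a B-type cyclin, Birc5 the survivin subunit of the chromosomal passenger complex and Bub3 a checkpoint protein. The low end was held by Foxm1 at 6.25, Espl1 at 6.21 and Nek2 at 4.71 RPKM, which encode a transcription factor, separase and a centrosomal kinase. Within the 15821 genes tested, the 40 levels ran from percentile 58.5 for Nek2 to 97.3 for Cdk1. Along the order from Cdk1 to Nek2, the values of neighbouring genes overlapped over the 11 libraries at every step except that from Anln (8.97 RPKM) to Foxm1.

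**Figure D1:**
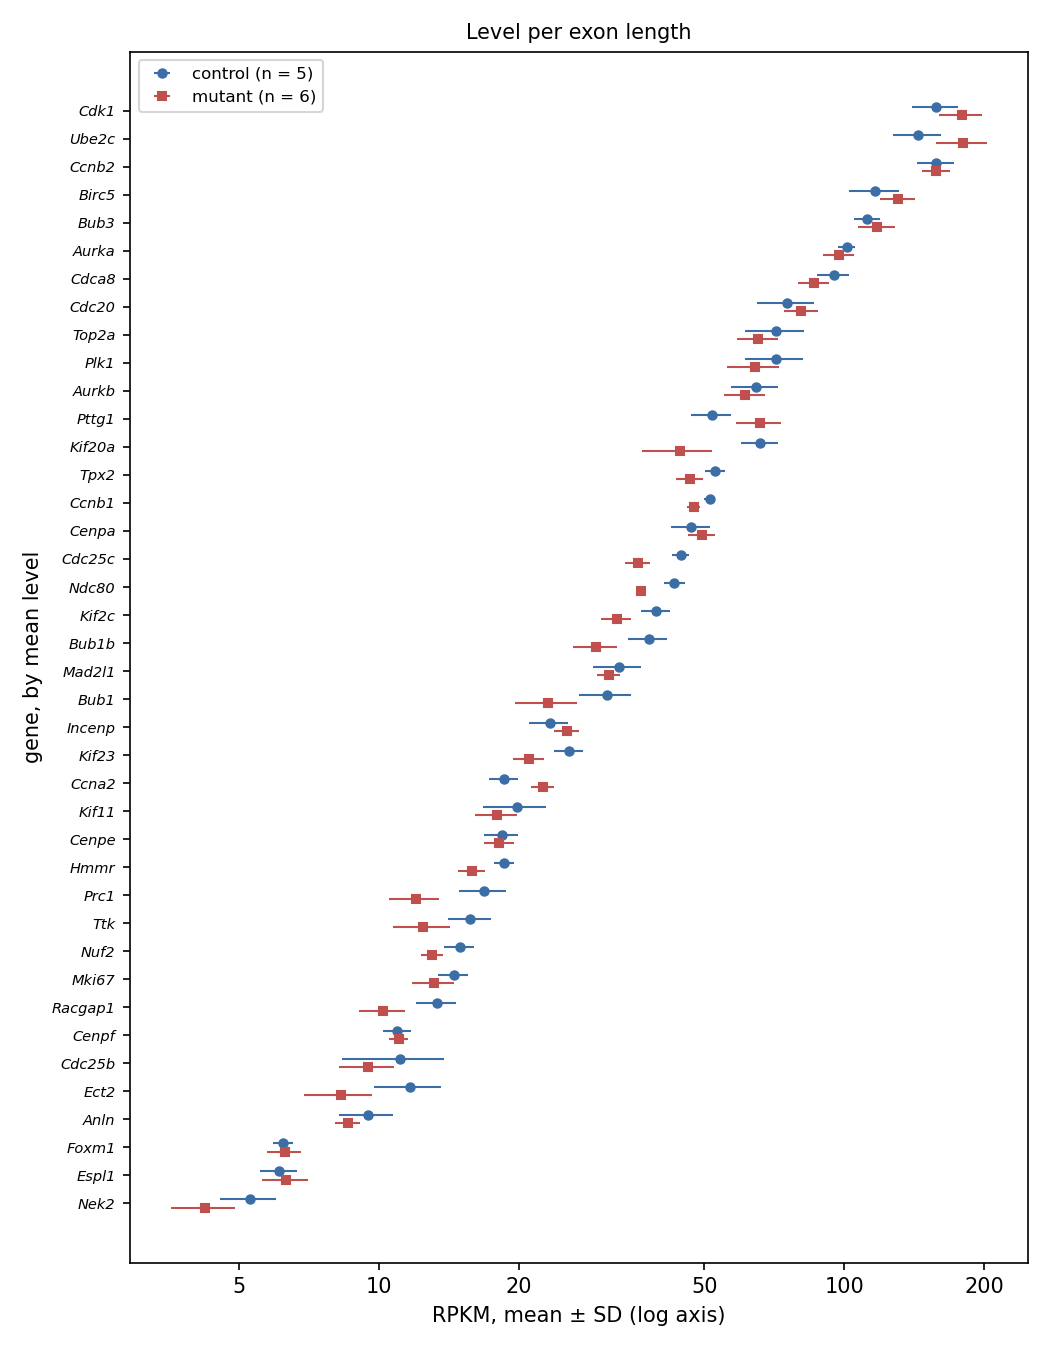
Mean level per exon length (RPKM, log axis) of each of the 40 genes in controls (circles, n = 5) and mutants (squares, n = 6), with bars of 1 SD. The genes spread from about 4.71 RPKM for Nek2 to 169.2 for Cdk1, and Kif20a, at 65.9 in controls, is among the genes whose group means lie visibly apart.

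The promoters of many of these genes carry the elements through which MuvB and NF-Y are known to act. RefSeq promoter windows (build GRCm38.p6, from 250 bases before to 50 after the start) were found for 33 of the 40 genes, as 36 windows. The other 7 genes were not searched, and Kif20a and Cdc25c, both called lower in mutants, are among them. A CHR element, searched as TTTGAA or TTCGAA on either strand, was present in 29 of the 36 windows (80.6%), against 19.2% of all 32851 windows of the table and 13.7% of the 13921 windows of tested genes. A CCAAT box, searched as CCAAT on either strand, was also present in 29 windows (80.6%), against 37.4% of all windows and 37.2% of those of tested genes. Both elements occurred together in 26 windows (72.2%), against 7.5% and 5.6%. An E2F motif, searched as TTTGGCGC, TTTCCCGC, TTTCGCGC or TTTGCCGC on either strand, was found in 1 window, that of Cdk1 (2.8%, against 2.3% and 3.8%). No motif searched is contained in another, neighbouring matches may share bases, and a match describes the sequence and not a bound site.

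The 160 bases before the annotated RefSeq start are shown for 4 genes: Prc1 and Ect2, because they fell in the mutants, and Cdk1 and Top2a, because they carry the same elements and did not pass the test. They are written 5′ to 3′ on the strand of the gene, with every CHR element and CCAAT box in capitals in whichever orientation it occurs. Prc1 lies at chr7:80294316-80294475 on the plus strand, and Ect2 at chr3:27153855-27154014, Cdk1 at chr10:69352913-69353072 and Top2a at chr11:99024190-99024349 on the minus strand.
Prc1: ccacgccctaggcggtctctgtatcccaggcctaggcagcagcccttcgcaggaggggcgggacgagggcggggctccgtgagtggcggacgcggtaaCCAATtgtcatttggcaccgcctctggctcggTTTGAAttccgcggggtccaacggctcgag
Ect2: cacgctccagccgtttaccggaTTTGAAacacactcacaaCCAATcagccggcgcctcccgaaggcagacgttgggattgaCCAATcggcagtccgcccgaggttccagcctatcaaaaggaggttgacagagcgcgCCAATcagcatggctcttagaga
Cdk1: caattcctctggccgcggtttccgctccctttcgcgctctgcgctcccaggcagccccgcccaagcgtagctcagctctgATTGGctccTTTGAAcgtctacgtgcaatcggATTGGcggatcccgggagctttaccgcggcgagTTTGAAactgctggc
Top2a: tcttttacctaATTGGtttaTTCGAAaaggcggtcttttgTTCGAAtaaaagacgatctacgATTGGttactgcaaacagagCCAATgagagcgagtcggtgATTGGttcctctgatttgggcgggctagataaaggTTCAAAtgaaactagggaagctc

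Each of the 4 stretches holds at least 1 CHR element and at least 1 CCAAT box: Prc1 has 1 and 1, Ect2 1 and 3, Cdk1 2 and 2, and Top2a 3 and 4. In the 17 genes with at least 2 CCAAT boxes in the window, the 2 boxes nearest the downstream end were 20 to 61 bases apart, with a median of 32. Genes with and without a CHR element leaned the same way between the groups: of the 26 genes with a CHR element, 19 were lower and 7 higher in mutants (median log2 fold change -0.13), and of the 7 with a window but no such element, 5 were lower and 2 higher (median -0.09).

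In the comparison of mutants with controls, 4 of the 40 genes fell, namely Kif20a, Prc1, Ect2 and Cdc25c, and none rose. Over all 15821 genes tested, 1.48% were called lower and 0.702% higher by the same rule (adjusted p under 0.05 in edgeR's quasi-likelihood fit, blocked by litter). Among the 345 genes called in all, 32.2% were higher in mutants. With upper-quartile scaling, 360 were called, 43.1% of them higher, and 3 of the 40 genes fell, with Cdc25c left out at an adjusted p of 0.0519 in edgeR. The calls did not hold in 9 of the 11 fits that leave out a library, without the litter block, or with a library-wide covariate built from genes with long and short runs of T (the T-run index), each of which left 0 of the 40. The T-run index was itself lower in mutants in each litter. DESeq2 called 12 lower and 3 higher. The median log2 fold change of the 40 genes was -0.12, against 0.00 over all genes tested, with a range from -0.57 to 0.33. The fold change was below 0 for 28 of the 40 (70%, against 49.3% of all genes tested), and for 26 of the 40 under upper-quartile scaling.

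At an unadjusted p under 0.05, 17 of the 40 were lower (42.5%, against 11.5% of all genes) and 3 were higher (7.5%, against 9.84%). The difference pointed down in each of the 4 litters for 20 genes (50%, against 13.5% of all genes) and up in each for 4 (10%, against 12.6%). The mutant libraries lay wholly below the control libraries for 8 genes, where 1.3% of all genes did so, and wholly above for 2, where 1.29% did. The 8 are Ccnb1, Cdc25c, Bub1b, Ndc80, Nuf2, Kif2c, Hmmr and Kif23, and the 2 are Ccna2 and Pttg1. The 40 genes were listed with earlier results of these data known, and no test was made on the list as a whole.

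**Figure D2:**
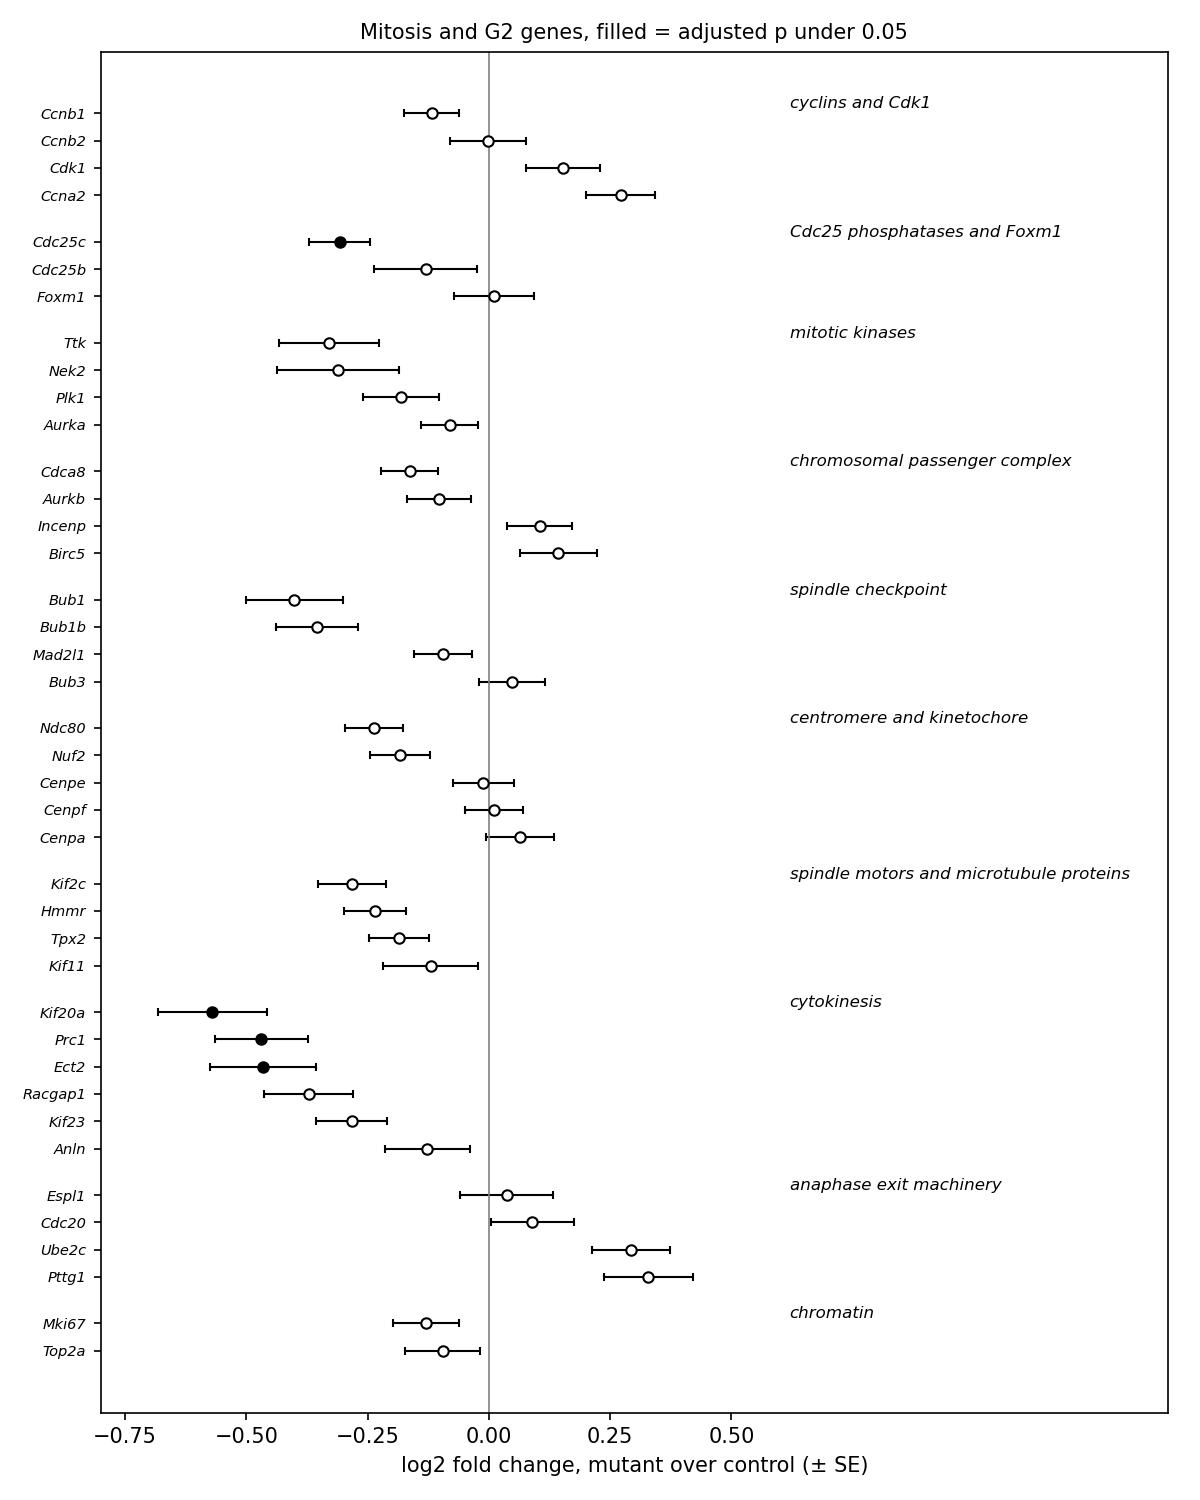
Log2 fold change (mutant over control, with bars of 1 SE) of each of the 40 genes, grouped by role, with the 4 genes past the adjusted p threshold as filled points. Cytokinesis genes lie furthest to the left, down to -0.57 for Kif20a, and anaphase genes lie right of 0, up to 0.33 for Pttg1.

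Of the 10 role groups, the cytokinesis genes had the median furthest from 0, which was not tested against the other groups. All 6 had a fold change below 0 (against 49.3% of all genes tested), with a median log2 fold change of -0.42. At an unadjusted p under 0.05, 5 were lower (83.3%, against 11.5% of all genes). Kif20a, Prc1 and Ect2 passed the threshold, where 1.48% of all genes tested were called lower. Kif20a encodes a kinesin of the central spindle that recruits Plk1 there. Its level was 266.4, 258.9, 258.8, 256.3 and 210.5 CPM in controls 1 to 5, and 176.0, 121.7, 175.4, 170.1, 211.0 and 156.0 CPM in mutants 1 to 6. Mutant 5 lay just above the lowest control, and the other 5 mutants lay below all controls. Kif20a fell by 0.57 on the log2 scale (SE 0.11, adjusted p = 0.0406, edgeR), from 250.2 ± 22.5 CPM (SD, n = 5) to 168.4 ± 29.2 (n = 6). Exons of Cdc23, a subunit of the anaphase-promoting complex on the other strand, cover 33.2% of the exon bases of Kif20a. The counting command had no strand option, reads on bases of both genes were by default left out, and Cdc23 also fell, by 0.45 (SE 0.08, adjusted p = 0.0353, edgeR).

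Prc1 encodes the protein that bundles antiparallel microtubules in the spindle midzone. Controls 1 to 5 had 143.1, 136.2, 149.7, 149.9 and 111.4 CPM, and mutants 1 to 6 had 102.8, 76.1, 98.7, 100.9, 113.1 and 99.8 CPM. Only mutant 5 exceeded the lowest control, control 5. Prc1 fell by 0.47 on the log2 scale (SE 0.10, adjusted p = 0.0406, edgeR), from 138.1 ± 15.9 CPM (SD, n = 5) to 98.6 ± 12.2 (n = 6). Ect2 encodes the exchange factor that activates RhoA at the division plane. Its control values were 69.2, 58.3, 72.6, 67.0 and 47.2 CPM and its mutant values 43.4, 34.1, 45.0, 40.8, 56.3 and 48.2 CPM. Mutants 5 and 6 lay above control 5 and below the other controls. Ect2 fell by 0.47 (SE 0.11, adjusted p = 0.0499, edgeR), from 62.9 ± 10.2 CPM (SD, n = 5) to 44.6 ± 7.44 (n = 6), which is at the edge of the threshold.

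The other 3 cytokinesis genes did not pass. Racgap1 and Kif23, the 2 subunits of centralspindlin, had log2 fold changes of -0.37 (SE 0.09, adjusted p = 0.0546, edgeR) and -0.28 (SE 0.07, adjusted p = 0.0608, edgeR). For Kif23 the mutants (60.9–77.1 CPM) did not overlap the controls (80.4–96.5 CPM). Anln, which encodes the actin-binding anillin of the cleavage furrow, had a log2 fold change of -0.13 (SE 0.09) and was 0.18 higher in mutants in litter D.

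**Figure D3:**
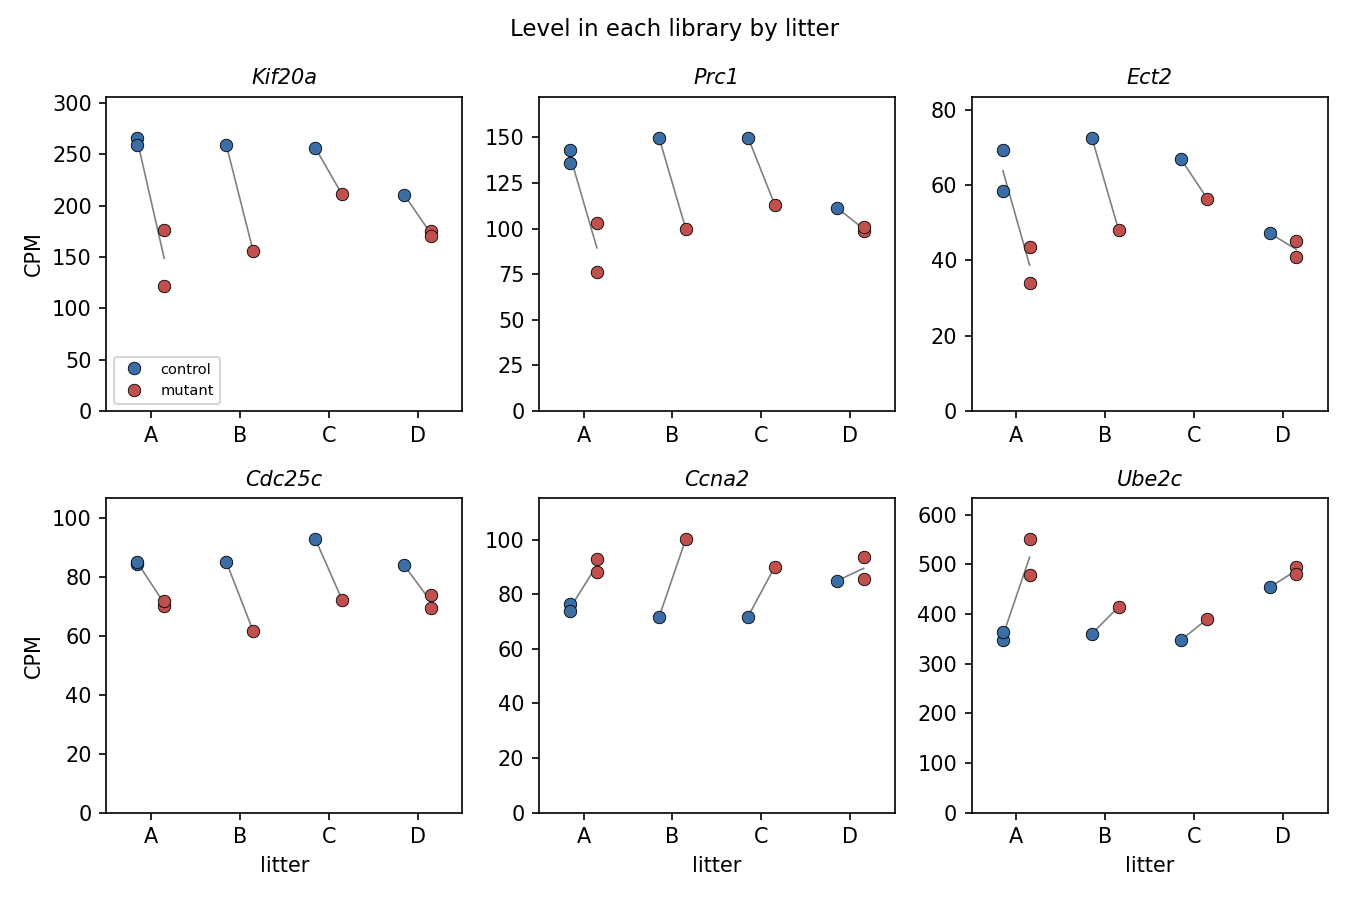
CPM of Kif20a, Prc1, Ect2, Cdc25c, Ccna2 and Ube2c in each library, by litter (A to D), with controls in blue, mutants in red and a line between the 2 group means of each litter; every axis starts at 0. The first 4 genes slope down and the last 2 slope up in each litter, and the Kif20a difference is -0.84 (log2) in litter A and -0.29 in litter D.

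The within-litter size of the cytokinesis differences was not even. Kif20a differed on the log2 scale by -0.84 in litter A, -0.73 in B, -0.28 in C and -0.29 in D, and Prc1 by -0.66, -0.58, -0.41 and -0.16. Ect2 differed by -0.72, -0.59, -0.25 and -0.14. Litter D, which holds control 5, had the smallest difference for Prc1 and Ect2, and litter A, which holds mutant 2, had the largest for all 3. The interaction of genotype and litter did not pass the threshold for any of the 40 genes (smallest adjusted p = 0.9501, edgeR), and none reached an unadjusted p under 0.05, against 3.82% of all genes tested.

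Taken over the 6 cytokinesis genes, the same libraries stood out. The median deviation of their log2 CPM from the mean of all libraries was 0.31, 0.16, 0.37, 0.31 and -0.02 in controls 1 to 5, and -0.13, -0.48, -0.16, -0.19, 0.02 and -0.15 in mutants 1 to 6. Control 5 thus lay below mutant 5, while all other controls lay above all mutants. A library-wide measure, here called the T-run index, also had control 5 lowest of the controls, mutant 5 highest of the mutants and mutant 2 lowest of all. It is the mean log2 CPM of genes whose transcripts hold a run of at least 18 T minus that of genes with runs of up to 5, and it was 2.29, 2.10, 2.27, 2.27 and 1.85 in controls and 1.87, 1.52, 1.81, 1.78, 2.10 and 1.96 in mutants. With that index as a covariate beside litter and genotype, the log2 fold changes were -0.20 for Kif20a, -0.17 for Prc1 and -0.11 for Ect2 (adjusted p = 0.3718, 0.4206 and 0.678, edgeR), and -0.32 for Cdc25c (adjusted p = 0.2243, edgeR). In that fit the 3 cytokinesis genes lay nearer 0 than Cdc25c, Ndc80 (-0.25), Ccna2 (0.25) and Cdca8 (-0.23). The index was lower in every mutant than in every control of the same litter, and it is computed from the same counts. What the covariate takes out thus cannot be told apart from a difference of genotype. The longest T runs in transcripts of these genes are 10 in Kif20a, 13 in Prc1, 7 in Ect2 and 11 in Cdc25c, and only Bub3 and Incenp of the 40 genes have runs of 18 or more.

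Among the regulators of entry into mitosis, Cdc25c fell. It encodes a phosphatase that removes inhibitory phosphates from Cdk1. Controls 1 to 5 had 84.6, 85.3, 85.1, 93.0 and 84.0 CPM, and mutants 1 to 6 had 70.3, 71.9, 69.5, 73.9, 72.4 and 61.8 CPM. All mutants lay below all controls, and the spread within each group was small. Cdc25c fell by 0.31 on the log2 scale (SE 0.06, adjusted p = 0.0406, edgeR), from 86.4 ± 3.71 CPM (SD, n = 5) to 70.0 ± 4.31 (n = 6). The within-litter differences were -0.26, -0.46, -0.36 and -0.23 in litters A to D. Cdc25b, which acts earlier at the centrosome, had a log2 fold change of -0.13 (SE 0.11) and Foxm1 one of 0.01 (SE 0.08), with overlapping groups for both.

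The cyclins and Cdk1 went different ways, and none passed the threshold. Ccna2, the cyclin of S and G2 phase, had 76.3, 73.7, 71.7, 71.8 and 84.9 CPM in controls 1 to 5 and 92.9, 88.3, 85.5, 93.5, 90.1 and 100.2 CPM in mutants 1 to 6. Every mutant lay above every control, with a log2 fold change of 0.27 (SE 0.07, adjusted p = 0.0619, edgeR). Ccna2 shares 12.5% of its exon bases with Exosc9, whose log2 fold change was 0.00 (SE 0.09). Ccnb1, the main mitotic cyclin, lay between 208.0 and 223.2 CPM in controls and between 188.5 and 207.8 in mutants, a log2 fold change of -0.12 (SE 0.06, adjusted p = 0.2574, edgeR). Ccnb2 was level, at 242.6 ± 22.2 CPM (SD, n = 5) in controls and 242.9 ± 16.8 (n = 6) in mutants.

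Cdk1, the partner of these cyclins, had 473.8, 572.7, 500.6, 535.9 and 633.0 CPM in controls and 576.6, 689.9, 646.0, 682.3, 568.7 and 531.4 CPM in mutants. The groups overlapped, the mean was higher in mutants in each litter, and the log2 fold change was 0.15 (SE 0.08, adjusted p = 0.278, edgeR). Cdk1 turned to -0.05 with the T-run index in the model.

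The 4 mitotic kinases all had fold changes below 0 (median -0.25) and none passed. Ttk, the Mps1 kinase that starts the checkpoint signal, had 83.2, 76.0, 80.4, 83.0 and 63.7 CPM in controls and 60.04, 45.3, 62.3, 64.2, 70.8 and 64.8 CPM in mutants. Control 5 fell among the mutants, and the log2 fold change was -0.33 (SE 0.10, adjusted p = 0.0985, edgeR), which turned to 0.01 with the T-run index in the model. Aurka, the centrosome and spindle kinase, had 241.0, 259.5, 251.0, 262.8 and 268.2 CPM in controls and 234.7, 244.6, 266.8, 269.3, 243.2 and 219.6 CPM in mutants. Its groups overlapped over most of their range (log2 fold change -0.08, SE 0.06). Nek2 had a log2 fold change of -0.31 (SE 0.13) and Plk1, which acts from entry into mitosis through cytokinesis, one of -0.18 (SE 0.08), both at an unadjusted p under 0.05.

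None of the 4 spindle checkpoint genes passed (median log2 fold change -0.22). Bub1b, which encodes BubR1 of the checkpoint complex that inhibits Cdc20, had 170.6, 155.4, 167.1, 179.4 and 138.9 CPM in controls and 138.0, 101.5, 119.4, 125.9, 136.4 and 130.2 CPM in mutants. All mutants lay below all controls, by under 1 CPM at the closest pair, with a log2 fold change of -0.35 (SE 0.08, adjusted p = 0.0520, edgeR), which was -0.12 with the T-run index in the model (adjusted p = 0.5872, edgeR). Bub1 had a log2 fold change of -0.40 (SE 0.10, adjusted p = 0.0546, edgeR), with control 5 at 111.6 CPM below mutants 5 and 6. Bub3, their binding partner, had 730.2, 792.5, 762.2, 778.3 and 862.1 CPM in controls and 757.6, 909.1, 892.0, 875.4, 781.2 and 732.5 CPM in mutants. The groups overlapped throughout, and the log2 fold change of 0.05 (SE 0.07) changed sign under 5 of the 26 alternatives. Mad2l1, which encodes the Mad2 inhibitor of Cdc20, had a log2 fold change of -0.09 (SE 0.06).

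None of the 5 centromere and kinetochore genes passed (median log2 fold change -0.01). Ndc80 and Nuf2 encode a pair of subunits that together bind the microtubule end. Ndc80 had 93.2, 93.4, 103.3, 90.5 and 94.1 CPM in controls and 82.4, 82.0, 78.9, 81.5, 77.3 and 80.3 CPM in mutants. The mutants formed a narrow group below all controls, with a log2 fold change of -0.24 (SE 0.06, adjusted p = 0.0546, edgeR). Nuf2 had a log2 fold change of -0.18 (SE 0.06, adjusted p = 0.1201, edgeR), also without overlap, its highest mutant at 87.3 CPM and its lowest control at 87.7. Cenpa, the histone H3 variant that marks the centromere, had 257.3, 268.1, 254.0, 275.8 and 319.0 CPM in controls and 305.0, 317.9, 286.7, 289.7, 276.5 and 262.0 CPM in mutants. Control 5 was the highest library of all, and the log2 fold change was 0.06 (SE 0.07), turning to -0.09 with the T-run index and to -0.05 without litter A. The fold changes of Cenpe, a kinetochore kinesin, and Cenpf were -0.01 and 0.01 (SE 0.06 each).

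The 4 genes of the chromosomal passenger complex, which corrects wrong attachments and later acts in cytokinesis, had a median log2 fold change of 0.00. Cdca8 (borealin) had 475.9, 478.5, 463.9, 479.3 and 558.9 CPM in controls and 448.3, 460.2, 467.3, 481.8, 433.9 and 385.1 CPM in mutants. The mean was lower in mutants in each litter (log2 fold change -0.16, SE 0.06, adjusted p = 0.1434, edgeR). Birc5 had 344.6, 417.4, 359.9, 392.9 and 468.0 CPM in controls and 425.7, 490.0, 450.0, 485.5, 390.1 and 426.8 CPM in mutants. Its groups overlapped, with a log2 fold change of 0.14 (SE 0.08), which turned to -0.07 with the T-run index. Incenp, the scaffold, and Aurkb, the kinase, had log2 fold changes of 0.10 (SE 0.07) and -0.10 (SE 0.07).

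All 4 spindle motors and microtubule proteins had fold changes below 0 (median -0.21), and none passed. At an unadjusted p under 0.05, 3 were lower (75%, against 11.5% of all genes). Kif2c, which encodes the microtubule depolymerase MCAK, had 173.9, 164.6, 178.3, 187.5 and 154.9 CPM in controls and 140.7, 122.0, 146.2, 148.9, 150.3 and 139.6 CPM in mutants. The groups did not overlap (log2 fold change -0.28, SE 0.07, adjusted p = 0.0546, edgeR). Tpx2, which activates Aurora A at the spindle, had 245.7, 225.6, 257.3, 253.3 and 252.9 CPM in controls and 221.8, 189.5, 216.6, 224.1, 227.0 and 228.6 CPM in mutants. Only control 2 lay within the mutant range (log2 fold change -0.18, SE 0.06, adjusted p = 0.1206, edgeR). With the T-run index in the model, Kif2c was at -0.12 and Tpx2 at -0.09 (adjusted p = 0.533 and 0.629, edgeR). Hmmr, a spindle pole protein, had a log2 fold change of -0.23 (SE 0.06) with mutants at 75.4–92.5 CPM and controls at 93.4–106.3, and Kif11, the motor that separates the poles, one of -0.12 (SE 0.10).

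The anaphase genes stood on the other side of 0: all 4 had fold changes above it (median 0.19), and none passed. At an unadjusted p under 0.05, 2 were higher (50%, against 9.84% of all genes). Ube2c had 348.4, 364.3, 360.1, 347.1 and 453.5 CPM in controls and 477.4, 550.6, 494.9, 480.6, 389.9 and 414.0 CPM in mutants. Control 5 lay above mutants 5 and 6, and the other controls lay below every mutant (log2 fold change 0.29, SE 0.08, adjusted p = 0.0696, edgeR). With the T-run index in the model, the log2 fold change of Ube2c was 0.07 (adjusted p = 0.7107, edgeR). Exons of Tnnc2 cover 22.8% of the exon bases of Ube2c, and Tnnc2 was too low to be tested. Pttg1, which encodes the securin that holds separase in check, lay between 88.8 and 114.7 CPM in controls and between 116.2 and 156.9 in mutants, with no overlap (log2 fold change 0.33, SE 0.09, adjusted p = 0.0726, edgeR). Cdc20, the activator of the anaphase-promoting complex, and Espl1, the separase, had log2 fold changes of 0.09 (SE 0.09) and 0.04 (SE 0.10).

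The 2 chromatin genes, often used as counts of dividing cells, differed little. Mki67 had 153.0, 133.9, 158.5, 147.4 and 135.1 CPM in controls and 129.0, 114.3, 128.3, 131.5, 134.9 and 156.7 CPM in mutants. The log2 fold change was -0.13 (SE 0.07, adjusted p = 0.2957, edgeR), lower in each litter, with mutant 6 as high as the controls. Top2a had 676.3, 601.3, 771.5, 652.8 and 517.8 CPM in controls and 618.1, 507.0, 568.2, 549.5, 614.6 and 674.2 CPM in mutants. Its log2 fold change was -0.10 (SE 0.08), with control 5 near the low end and litter D pointing up by 0.11. With the T-run index in the model, Mki67 and Top2a turned to 0.01 and 0.11.

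**Figure D4:**
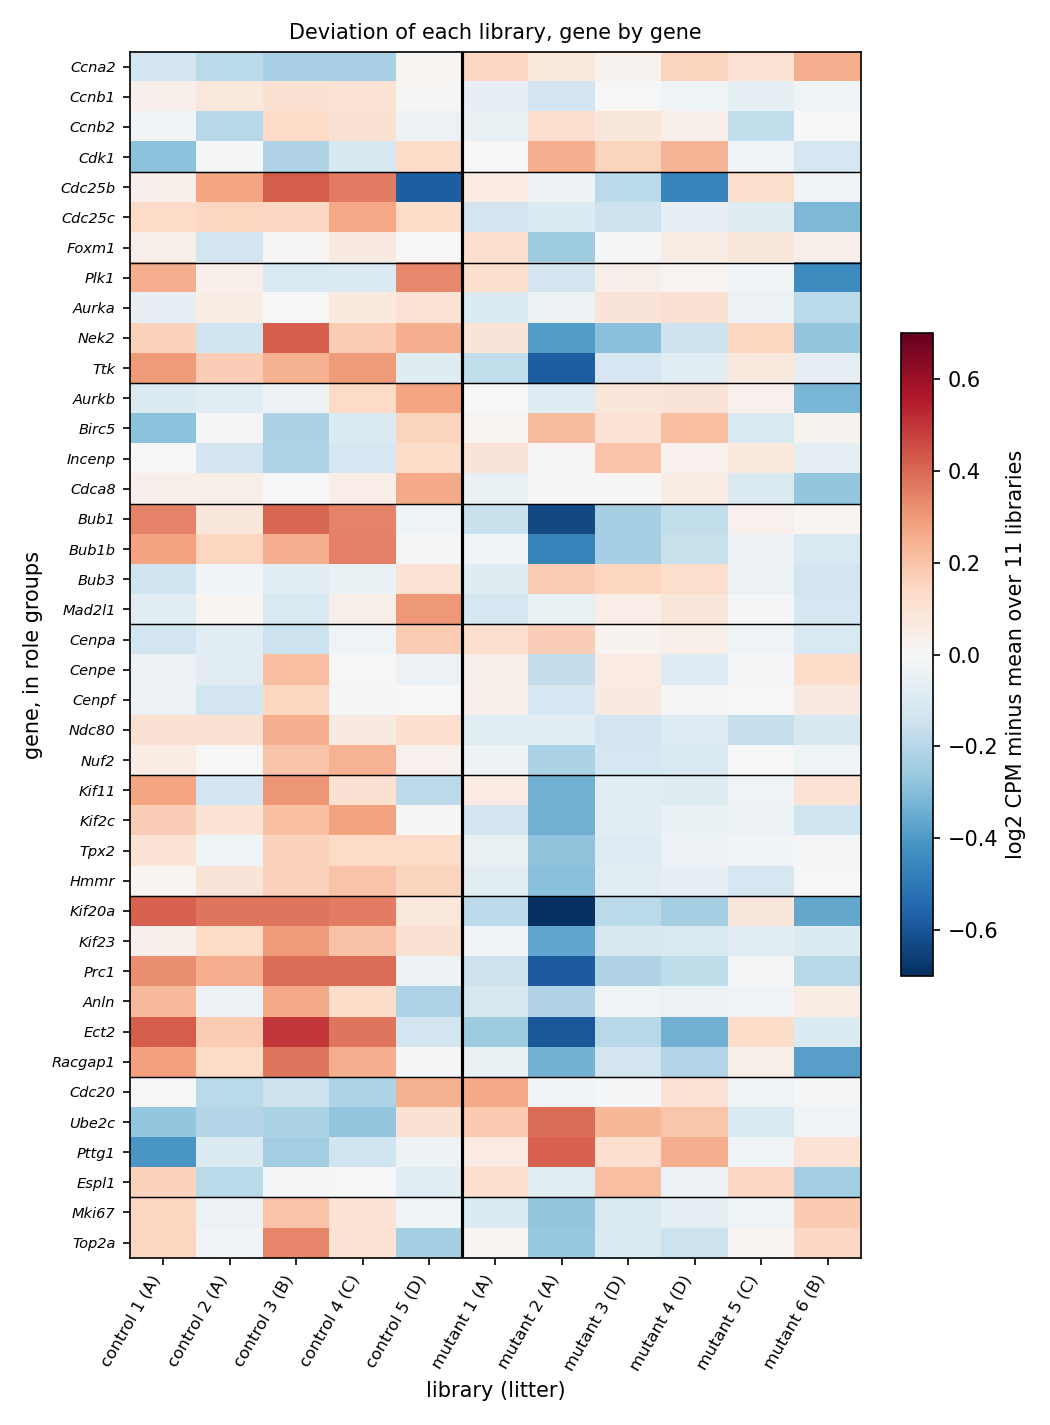
Deviation of each gene (rows, by role) from its mean log2 CPM over the 11 libraries (columns, controls then mutants). Kif20a, Prc1, Ect2, Bub1 and Bub1b are high in controls 1 to 4 and low in mutant 2, Ube2c and Pttg1 run the other way, and control 5 lies nearer 0 in these rows than the other controls do for Kif20a, Bub1 and Bub1b.

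The library medians spread less over all 40 genes than over the 6 cytokinesis genes, where they ran from -0.48 to 0.37. This follows in part from the grouping, as all 6 had fold changes below 0 and the 40 mix both directions. The summed level ran from 7596 to 8047 CPM in controls and from 7252 to 7808 in mutants. The median deviation over the 40 genes was 0.04, -0.01, 0.15, 0.10 and 0.02 (log2) in controls 1 to 5 and -0.03, -0.13, -0.02, -0.04, -0.02 and -0.06 in mutants 1 to 6. Mutant 2 was the lowest of the 11 libraries for 18 of the genes and the highest for 5, and control 3 was the highest for 16. Mutant 2 also had the largest share of counts in haemoglobin genes, 5.44% against 1.69–2.76% in the other mutants and 1.34–3.30% in controls. The red blood cell markers, all 10 higher in mutants, summed to 13460–33170 CPM in controls and 17010–54680 in mutants. The macrophage markers, 9 of 10 higher in mutants, summed to 9–46.9 and 18.6–66.6 CPM. At an unadjusted p under 0.05, 40% of them were higher, against 9.84% of all genes. The part of blood cells and macrophages in the levels of the 40 genes was not tested.

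Litter differences in these genes were near the background share. None of the 40 passed the test for litter differences at an adjusted p under 0.05 (smallest adjusted p = 0.2002, edgeR), against 0.0885% of all genes, and 5 had an unadjusted p under 0.05 (12.5%, against 13.5%). Cdc25b had the smallest unadjusted litter p of the 40, 0.00631, with control 5 at 24.95 CPM and the other controls at 38.1–50.1 CPM.

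Over the 40 genes, the log2 fold change went with the level, as higher genes had higher fold changes (Spearman rho 0.38, against 0.01 over all genes tested). Its correlation with exon length was -0.16, against -0.18 over all genes, and with the longest T run -0.02, against -0.18. These are across genes that share the same 11 libraries, and genes are not independent replicates.

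Among other genes of mitosis, not in the 40, the counts differed from list to list. Over all genes tested, 49.3% had fold changes below 0, and 11.5% were lower and 9.84% higher at an unadjusted p under 0.05. At the adjusted threshold, 1.48% of all genes were called lower and 0.702% higher. Of 24 other kinesins and spindle proteins, 21 had fold changes below 0 (median -0.13), 10 were lower and 1 higher at an unadjusted p under 0.05, and Ckap2l, a spindle pole protein, and Kif22, the chromokinesin Kid, fell. Ckap2l fell by 0.39 (SE 0.08) from 121.4 ± 9.93 CPM (SD, n = 5) to 91.9 ± 7.34 (n = 6), and Kif22 by 0.27 (SE 0.05) from 356.7 ± 16.2 to 298.4 ± 13.4, both with an adjusted p of 0.0406 in edgeR and no overlap of groups. Of the 8 condensin subunits, which compact mitotic chromosomes, 7 were below 0 (median -0.17) and 2 fell, namely Ncapg by 0.29 (SE 0.06, adjusted p = 0.0406, edgeR) and Ncaph by 0.28 (SE 0.06, adjusted p = 0.0495, edgeR). Of 33 other centromere and kinetochore genes, 22 were below 0 (median -0.10), 14 were lower (42.4%, against 11.5% of all genes) and 3 higher (9.09%, against 9.84%) at an unadjusted p under 0.05, and none passed. The 2 with the smallest p were Dsn1 (-0.33, SE 0.08, adjusted p = 0.0530, edgeR) and Zw10 (-0.35, SE 0.09, adjusted p = 0.0546, edgeR).

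Of 15 regulators of mitotic entry, 9 were below 0 (60%, against 49.3% of all genes tested), with a median of -0.10. Cdc25a rose, by 0.31 (SE 0.07, adjusted p = 0.0475, edgeR), from 68.1 ± 5.20 CPM (SD, n = 5) to 84.6 ± 3.16 (n = 6) without overlap. Cdc25a, the family member that also acts at the start of S phase, thus differed in the opposite direction from Cdc25c. Of 16 subunits and partners of the anaphase-promoting complex, 6 were below 0 (median 0.05), and only Cdc23, the neighbour of Kif20a, passed. Of the 19 MuvB, E2F and pocket protein genes that regulate these promoters, 11 were below 0 (median -0.09) and none passed. The smallest p values there were those of E2f1 (0.48, SE 0.12, adjusted p = 0.0546, edgeR) and E2f7 (-0.28, SE 0.09, adjusted p = 0.0943, edgeR).

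Genes of S phase, the preceding stage of the cell cycle, showed a smaller median. Of 26 S phase genes, 15 were below 0 (57.7%) with a median of -0.01, against 70% and -0.12 for the 40 mitotic genes. At an unadjusted p under 0.05, 7 were lower (26.9%, against 11.5% of all genes) and 2 were higher (7.69%, against 9.84%). The difference pointed down in each of the 4 litters for 7 (26.9%, against 13.5% of all genes) and up in each for 2, where 12.6% of all genes did so. Ccne2, a G1/S cyclin, was the 1 gene that passed, falling by 0.47 (SE 0.08, adjusted p = 0.0291, edgeR) from 70.6 ± 7.80 CPM (SD, n = 5) to 50.1 ± 7.47 (n = 6). The difference between the 2 lists was not tested.

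The calls depended on single libraries. Leaving out a library from among controls 1 to 4 or mutants 1, 3, 4, 5 and 6 left none of the 40 genes past the threshold, with 1 to 15 genes called in all. Without control 5, 850 genes were called and 9 of the 40 fell and 2 rose. Ccna2 (log2 fold change 0.34, adjusted p = 0.0298, edgeR) and Ube2c (0.36, adjusted p = 0.0422, edgeR) were those that rose. Ttk, Bub1, Bub1b, Kif2c and Racgap1 fell beside Kif20a, Prc1, Ect2 and Cdc25c. Without mutant 2, 279 genes were called and 5 of the 40 fell. In litters B, C and D, leaving out control 3, control 4 or control 5, or mutant 5 or mutant 6, removes the only library of that genotype, so that the rest of that litter no longer bears on the difference. Without both control 5 and mutant 2, an alternative added after seeing the data, 533 were called, 8 of the 40 fell and 1 rose. Kif20a, Prc1 and Cdc25c passed without control 5 and without mutant 2, and Ect2 passed without control 5 and had an adjusted p of 0.0590 (edgeR) without mutant 2. The highest adjusted p over the 11 fits was 0.1794 for Kif20a and for Prc1, 0.1904 for Cdc25c and 0.2037 for Ect2 (edgeR). The log2 fold changes ranged from -0.66 to -0.47 for Kif20a, from -0.57 to -0.39 for Prc1 and for Ect2, and from -0.33 to -0.27 for Cdc25c over these fits. Without litter as a block, 13 genes were called and none of the 40, with adjusted p-values of 0.0549 for Kif20a and Prc1, 0.0559 for Cdc25c and 0.0641 for Ect2 (edgeR). DESeq2 with the litter block called 1194 genes, of which 12 of the 40 fell and 3 rose.

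**Figure D5:**
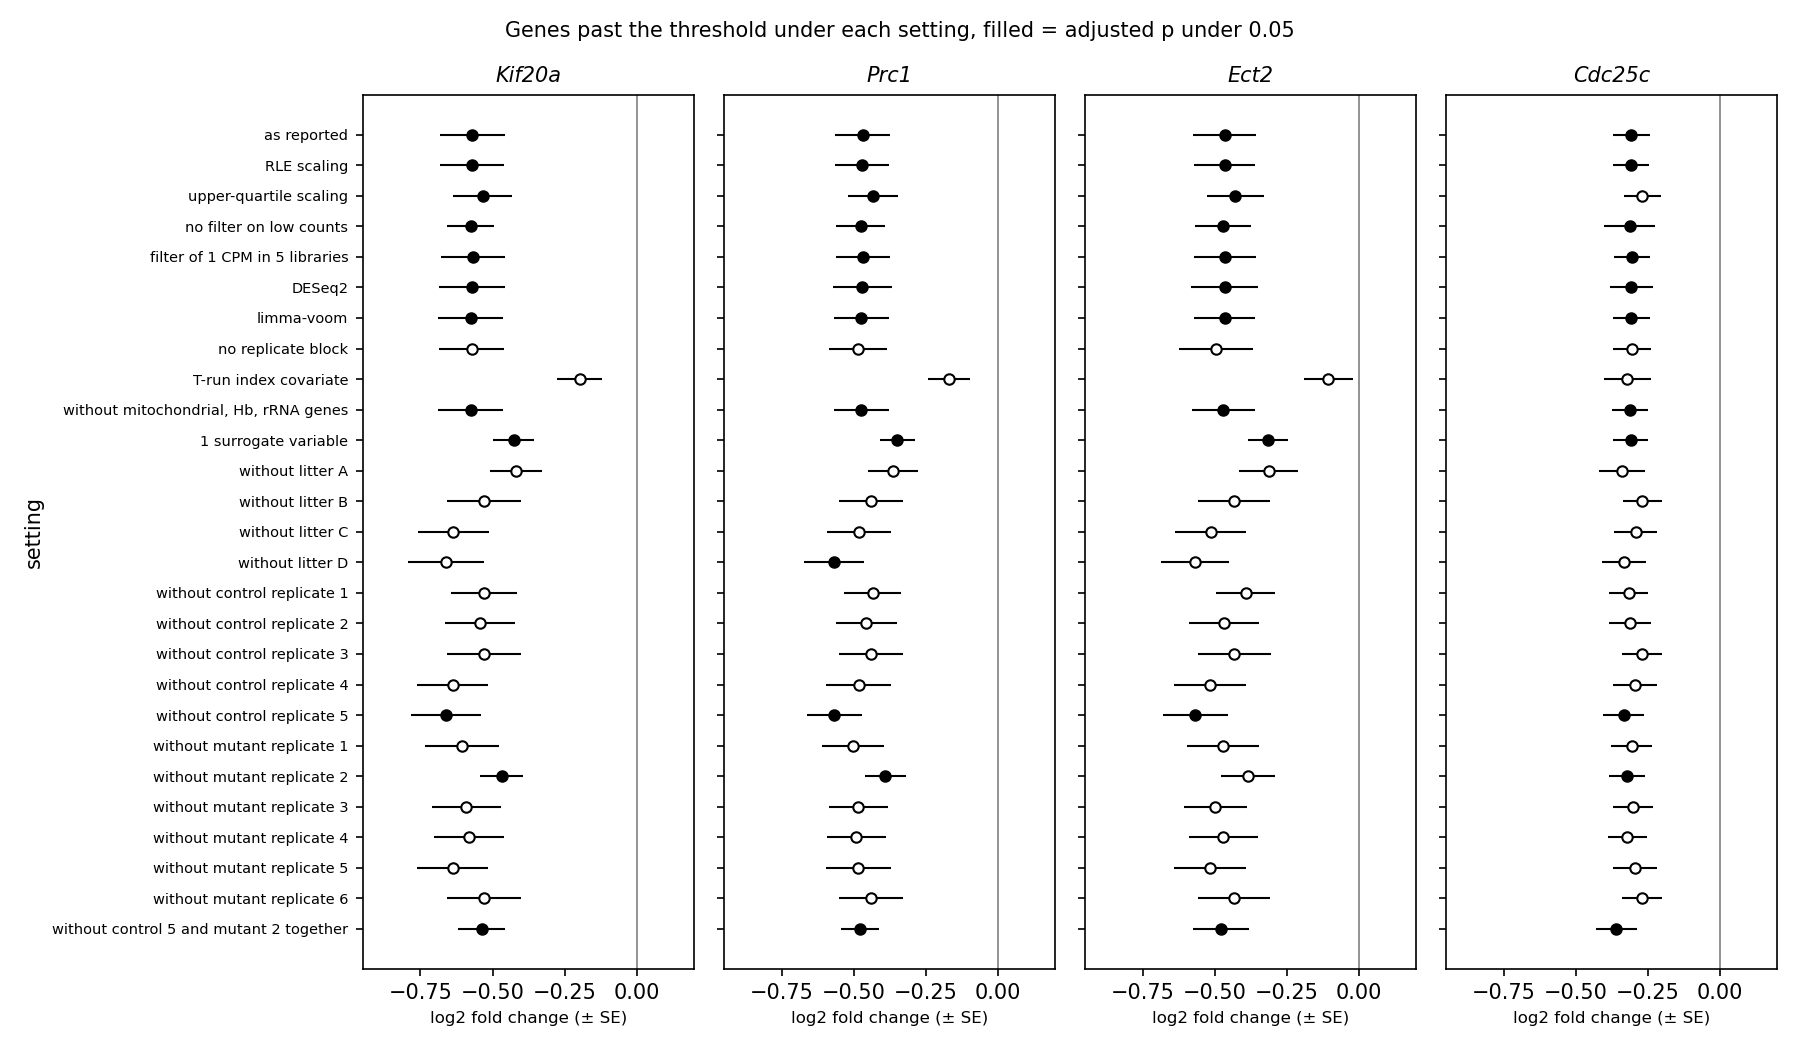
Log2 fold change (mutant over control, bars of 1 SE) of Kif20a, Prc1, Ect2 and Cdc25c under each way of processing, 1 row per setting, with filled points for an adjusted p under 0.05. All points lie left of 0, those with the T-run index in the model lie closest to 0 for Kif20a (-0.20), Prc1 (-0.17) and Ect2 (-0.11), and most of the points that leave out a library are open.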

How the data were processed

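The authors deposited unnormalized read counts for each gene name, from featureCounts 1.4.6-p4 with mm10 and GENCODE M9, per the file headers. Their command required a mapping quality of 10 or more and had no option for strand, read pairs or reads over several genes, so such reads were left out by default and strand was ignored. Reads were aligned with STAR 2.5.4b, per the submitters' processing notes. The command lists 12 alignment files and the table used here has 11 sample columns. RNA was total RNA after ribosomal RNA depletion, and samples of low integrity were rejected, per the labels' protocols.

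For the analysis here, edgeR 4.0.16 was run in R 4.3.3 (with limma 3.58.1). The filterByExpr filter left 15821 genes, which held 99.9% of counts. Libraries, with totals of 14721181 to 19733288 counts, were scaled by TMM, and log2 CPM used a prior count of 2. Genes were tested by a two-sided quasi-likelihood F test of edgeR with genotype and a block for litter, and Benjamini-Hochberg adjustment over all genes tested at a threshold of 0.05. The biological coefficient of variation was 16.3%. RPKM divide CPM by the deposited exon length. The script was tested on simulated data with a fixed spread between libraries and no litter effect. That checks the code and does not bear on how firm the calls are. T runs came from GENCODE M21 transcripts and promoters from RefSeq.

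Libraries were paired by litter, taken from the titles. Deviations from group means correlated at -0.16 to 0.37 (median 0.13) over 8 pairs from 1 litter and at -0.33 to 0.17 (median -0.02) over 22 pairs from different litters. No 2 libraries of a group were alike to within sampling noise (chi-square of at least 6.82 for each degree of freedom, in 25 pairs).

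The 40 genes and all lists were chosen with earlier results of these data known. Values in every library are given for genes past the threshold and, in each role group, for the gene with the smallest p and that with the highest level per length, 19 genes in all. In other lists, genes past the threshold are named, or otherwise the 2 with the smallest p. The 26 alternatives were upper-quartile and RLE scaling, no filter or 1 CPM in 5 or more libraries, limma-voom, DESeq2 1.42.0, a fit without the block, the T-run index as a covariate, a table without haemoglobin, mitochondrial and ribosomal RNA genes, 1 surrogate variable (sva 3.50.0), and leaving out each litter, each library, or control 5 and mutant 2 together.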

Additional observations from a re-analysis of the deposited data

Results flagged for a closer look

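In 96 comparisons of the highest or lowest library with the rest of its group, over 24 measures, 10 values lay far from the others of their group, where chance alone gives about 4.8. They came from 4 of the 11 libraries. Mutant 2 was low for Ttk, at 5.504 log2 CPM against 5.911–6.148 in the other mutants, for Kif2c at 6.932 (7.127–7.233), for Tpx2 at 7.567 (7.760–7.837) and for Prc1 at 6.252 (6.626–6.824). It was also high for its share of haemoglobin counts, 5.443% against 1.691–2.762%. Control 5 was low for Kif20a, at 7.718 log2 CPM against 8.002–8.058 in the other controls, and high for Cdca8 at 9.127 (8.858–8.905) and Ube2c at 8.825 (8.440–8.510). Cdc25c was high in control 4, at 6.540 (6.395–6.416), and low in mutant 6, at 5.952 (6.122–6.210). Of the 10, 5 were in mutant 2 and 3 in control 5.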

How the results depend on the processing

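The median log2 fold change of the 40 genes, -0.124 as reported, stayed below 0 under all 26 alternatives. It ran from -0.153 without control 5 to -0.081 with the T-run index in the model. The 4 calls did not hold as widely. Genes past the threshold in all, and genes of the 40 that fell and rose, came to 1566, 10 and 3 with no filter on low counts, 550, 10 and 0 with the 1 CPM filter, 1194, 12 and 3 with DESeq2, 13, 0 and 0 with no replicate block (that is, without the pairing by litter), and 2, 0 and 0 with the T-run index in the model. With 1 surrogate variable, 8 of the 40 fell. Without litter A, B, C or D, 9, 3, 1 and 148 genes were called, and 0, 0, 0 and 1 of the 40 fell. Leaving out each library in turn gave 1 to 850 genes, 0 to 9 of the 40 lower and 0 to 2 higher. Without control 5 and mutant 2 together, chosen after seeing the data, it was 533, 8 and 1. Litter differences gave 1583 genes and 1 of the 40 with no filter, and the interaction 438 genes. The cause of these shifts was not tested.

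Over the 19 genes given by library, 391 of 494 values kept direction and side of the threshold, 30 newly passed, 61 no longer passed and 12 changed sign. With the T-run index, Cdk1 turned to -0.046, Birc5 to -0.068, Bub3 to -0.087, Cenpa to -0.093, Ttk to 0.010, Mki67 to 0.011 and Top2a to 0.111. Bub3 also turned to -0.012 with 1 surrogate variable, -0.002 without litter A, -0.007 without mutant 2 (leaving out each library gave -0.007 to 0.077) and -0.023 without control 5 and mutant 2 together, and Cenpa to -0.045 without litter A. The cause was not tested. The lowest count of the 40 genes in a library was 241, for Nek2, and whether depth limits its result was not tested.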

Other observations

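Kif20a and Cdc25c, both lower in mutants, are neighbours on chromosome 18. Within 500 kb on either side of Kif20a, 23 genes were tested, Kif20a and Cdc25c among them, and 12 had a fold change below 0, against 49.3% of all genes tested. The threshold was passed by 5, including Kif20a and Cdc25c, around which the window was chosen, against 1.48% of all genes called lower and 0.702% called higher. Brd8, a chromatin reader of the TIP60 complex, fell by 0.40 (SE 0.07, adjusted p = 0.0353, edgeR) beside Kif20a, Cdc23 and Cdc25c, while Reep5, a membrane-shaping protein of the endoplasmic reticulum, rose by 0.32 (SE 0.07, adjusted p = 0.0462, edgeR). The window was chosen after the values were seen, and whether the position has a part in these differences was not tested.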
